A study of Vitis vinifera with 2 samples.

Results

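A group of 3833 intergenic transposable elements (TEs) of grapevine was described, whose CHG methylation was at least 40 percentage points higher in embryogenic callus (EC) than in leaf. They are called strongly gaining TEs here, and made up 4.73% of the 81035 intergenic TEs listed for CHG (Wilson 95% interval 4.59 to 4.88), out of 184251 TEs listed in at least 1 context. Because they were chosen on the CHG values of both tissues, their CHG difference is a description of the choice and not a result.

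Whole-genome bisulphite sequencing of the Vitis vinifera cultivar Chardonnay gave 1 EC library and 1 leaf library. The EC was a proliferating culture raised from anthers of immature inflorescences, kept in the dark and pooled from several Petri dishes, and is capable of forming somatic embryos. The leaf sample was made of several small young leaves from the vines that gave the anthers. Bisulphite leaves methylated cytosines unchanged and converts the others, so the proportion of reads with a cytosine left gives the methylation level, shown here as a percentage per TE. With 1 library per tissue no difference has a replicate check, no test was made and no p-value is given. The number of reads and of cytosines behind each TE is unknown, and Wilson intervals cover counting error only and treat TEs as independent.

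Plant cytosines are methylated in 3 sequence contexts, CG, CHG and CHH, with H being any base but G. As known from Arabidopsis thaliana, the methyltransferase MET1 copies CG methylation after DNA replication, while CMT3 maintains CHG methylation in a loop with a histone mark of silent chromatin. CHH methylation has to be renewed on newly made DNA, by DRM2 under the guidance of small RNAs (RNA-directed DNA methylation) and by CMT2 in heterochromatin. TEs usually carry all of these marks, and intergenic TEs, which lie outside annotated genes, are their main carriers in plant genomes.

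CHG methylation of the strongly gaining TEs averaged 78.2% in EC and 26.9% in leaf (SD over TEs 12.3 and 14.8), with a median of 79.8% in EC and 28.0% in leaf. They were thus highly methylated in EC, where the mean over all intergenic TEs was 71.1%, and weakly to moderately methylated in leaf, where that mean was 61.9%. In EC 3488 of them (91.0%) reached 60% CHG methylation and 1904 (49.7%) reached 80%, against 53.0% of all intergenic TEs at 80% or more. In leaf, 192 (5.01%) were listed at 0 for CHG.

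Many of the strongly gaining TEs lay close to the limit. Their EC minus leaf difference had a median of 48.9 percentage points, with quartiles of 43.8 and 56.7, and 1215 (31.7%) lay within 5 percentage points above the limit. A difference of 60 percentage points or more was found in 681 (17.8%) and of 80 or more in 49 (1.28%). The smallest difference inside the limit was 40 and the largest outside it 39.99 percentage points. Among TEs of at least 1000 bp, a TE just inside it on chromosome 16 (12384033 to 12385365) had 51.79% CHG in EC and 11.79% in leaf, and a TE just outside it on chromosome 14 (20583650 to 20585084) had 74.25% in EC and 34.29% in leaf. The others inside it, on chromosomes 17 (from 5389941) and 2 (from 16671639), reached 84.81% and 82.06% in EC. The others outside it, on chromosome 9 (from 18921257) and on a sequence assigned to chromosome 18 without a position (from 703460), reached 75.46% and 74.36% in EC. TEs on either side of the limit therefore had similar CHG differences, while their levels in each tissue varied.

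The TEs used for comparison were the 19128 intergenic TEs (23.6%) whose CHG methylation was equal or lower in EC, called non-gaining TEs. They were weighted so that each class of 5 percentage points of leaf CHG methylation had the same share as among the strongly gaining TEs. Every strongly gaining TE fell in a class that also held non-gaining TEs, and the leaf CHG mean was 26.9% in both. By the same choice, CHG methylation in EC averaged 78.2% in strongly gaining and 14.6% in non-gaining TEs. The remaining 58074 intergenic TEs (71.7%) lay between these limits.

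The share of TEs that gained strongly differed by leaf level, which is itself part of the choice, so these shares are a description. Of TEs with leaf CHG methylation of 20 to under 30%, 33.4% were strongly gaining, and 30.8% of those from 10 to under 20%. The share was lower at both ends, with 13.6% of TEs under 10% in leaf, 12.04% from 40 to under 50% and 1.87% from 50 to under 60%. A TE above 60% in leaf cannot gain 40 percentage points, and one just below it has to come close to full methylation in EC. The highest leaf value among the strongly gaining TEs was 59.1%. Among the classes under 60%, the share of non-gaining TEs was highest under 10%, at 33.0%, and lowest from 50 to under 60%, at 18.1%. In the class under 10% the EC mean was 63.7% in strongly gaining TEs and 0.639% in non-gaining TEs.

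**Figure D1:**
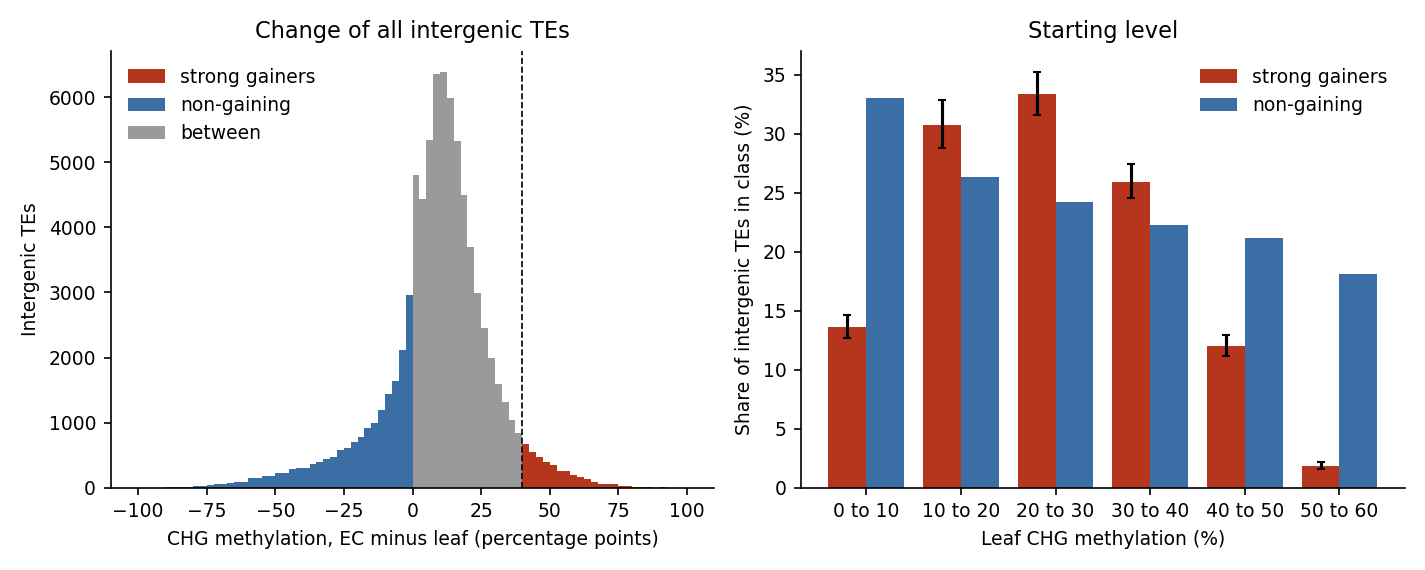
The choice of TEs. Left, number of intergenic TEs (y axis) by CHG methylation in EC minus leaf (x axis, percentage points), with strongly gaining TEs (strong gainers) right of the dashed line at 40, non-gaining TEs at 0 or less, and the TEs between. Right, share of the intergenic TEs in each class of leaf CHG methylation (x axis, %) that gained strongly (bars show Wilson 95% intervals) or did not gain, where the share of strong gainers peaks at 33.4% from 20 to 30%.

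CG methylation was listed for 3073 strongly gaining TEs (80.2%), and was also higher in EC in 2671 of these (86.9%). It was higher in EC in 44.0% of non-gaining and in 66.3% of all intergenic TEs listed for CHG and CG. In the strongly gaining TEs it averaged 87.0% in EC and 64.3% in leaf (SD over TEs 10.4 and 25.4). The difference was 22.7 percentage points, with quartiles of 4.60 and 37.65. Over all intergenic TEs listed for CHG and CG the mean CG difference was 3.51. In non-gaining TEs at the same leaf CHG level, CG averaged 65.8% in EC and 70.6% in leaf, a difference of -4.84. The strongly gaining TEs thus had more CG methylation than the non-gaining TEs in EC and less in leaf. The difference of differences was 27.5 percentage points, and taken by chromosome it was positive on 19 of 19, from 22.8 on chromosome 7 to 35.9 on chromosome 12 (SD over chromosomes 3.46). Leaf CG differed by -6.31 percentage points between strongly gaining and non-gaining TEs, from -11.5 on chromosome 12 to -1.07 on chromosome 7, and by -10.3 among TEs of at least 500 bp. Chromosomes of the same libraries are not replicates, so this spread shows evenness along the genome alone.

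The counts showed the same for single TEs. CG was at least 20 percentage points higher in EC in 1429 of 3073 strongly gaining TEs, or 46.5% (44.7 to 48.3), against 5.42% of non-gaining TEs and 6.94% of all intergenic TEs listed for CHG and CG. It was at least 40 percentage points higher in 700 (22.8%), against 1.13% of non-gaining and 1.76% of all intergenic TEs. A CG level at least 20 percentage points lower in EC was found in 21 (0.683%), against 16.0% of non-gaining TEs and 2.76% of all. The CG levels of the tissues lay within 10 percentage points of each other in 1082 strongly gaining TEs (35.2%), against 56.4% of non-gaining TEs and 73.8% of all. CG in EC was 80% or more in 2577 (83.9%), close to the 82.6% of all intergenic TEs and above the 44.9% of non-gaining TEs, and under 20% in 6.

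**Figure D2:**
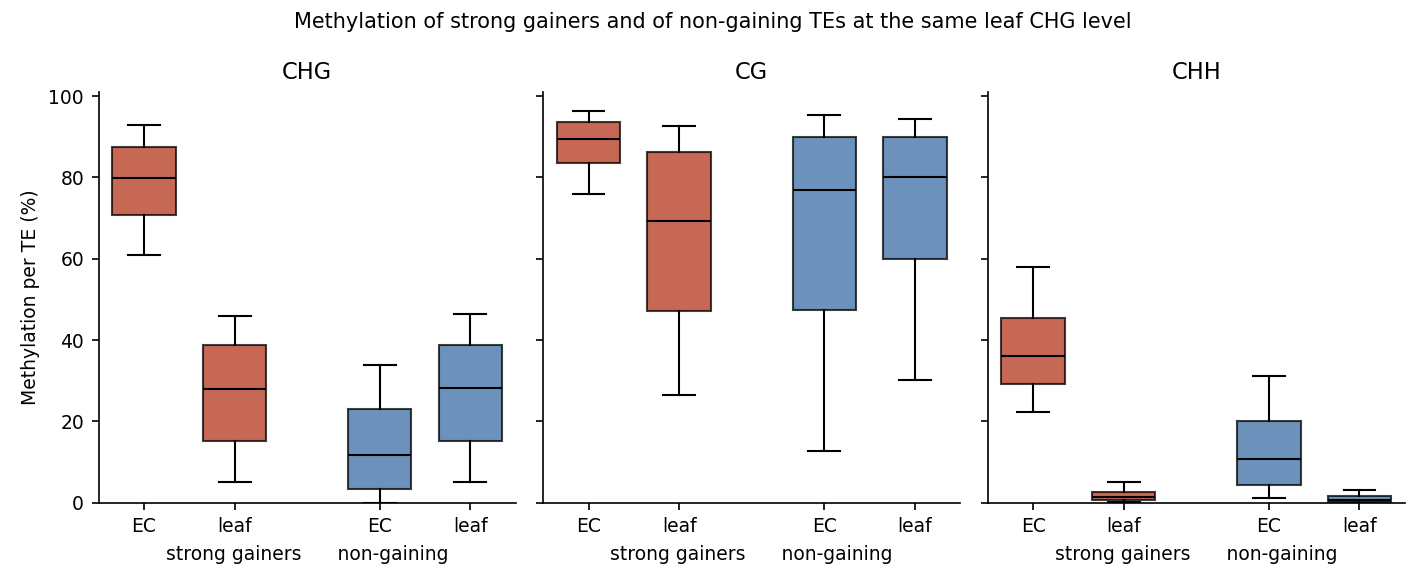
Methylation per TE (y axis, %) in the CHG, CG and CHH contexts for strongly gaining TEs (red) and for non-gaining TEs weighted to the same leaf CHG level (blue), with EC left of leaf in each pair. Lines show medians, boxes the quartiles and whiskers the 10th and 90th percentiles over TEs. The median CG of strongly gaining TEs was 89.4% in EC and 69.4% in leaf, and their median CHH was 36.1% in EC and 1.40% in leaf.

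Divided by leaf CG, the strongly gaining TEs held quite different states. The largest class, 1759 TEs (57.2%), had leaf CG from 20 to under 80%. In these CG averaged 85.2% in EC and 55.6% in leaf, a difference of 29.6 percentage points (SD over TEs 17.2). A further 1096 (35.7%) had leaf CG of 80% or more, with CG at 91.7% in EC and 89.4% in leaf and CHG at 80.6% in EC and 31.1% in leaf. Leaf CG of 80% or more was found in 50.4% of non-gaining TEs at the same leaf CHG level and in 73.4% of all intergenic TEs. CG of 80% or more in both tissues was found in 1039 strongly gaining TEs (33.8%), in 36.1% of non-gaining and in 67.6% of all intergenic TEs. The smallest class, 218 TEs (7.09%), had leaf CG under 20%, and their CG averaged 78.8% in EC and 8.90% in leaf and their CHG 67.5% in EC and 8.47% in leaf. TEs of this class were methylated in all contexts in EC and almost bare in leaf. Leaf CG under 20% was found in 7.52% of non-gaining TEs, in which CG was 7.50 percentage points higher in EC, and in 1.89% of all intergenic TEs.

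Across the strongly gaining TEs, the CG difference followed leaf CG closely (Pearson's r -0.91, Spearman's rho -0.91, n = 3073 TEs), which it contains by construction. TEs of the same libraries are not independent replicates. As leaf CHG increased from under 10% to 50 to under 60%, leaf CG of strongly gaining TEs increased with it, with class means of 46.1, 55.9, 63.4, 70.6, 77.6 and 81.5%. CG in EC lay between 84.1 and 89.6% in all of these classes, so the mean CG difference was smaller at higher leaf CHG, at 38.0 percentage points in the lowest class and 7.81 in the highest. In non-gaining TEs CG was lower in EC in each class, with differences of -2.99 to -6.49 percentage points. These TEs also had less CHG in EC, by a weighted mean of -12.2 percentage points. For TEs with a CHG difference within 10 percentage points of 0, the weighted mean CG difference was 0.474, against -4.84 in non-gaining TEs.

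CHH methylation, which was near 0 in leaf, was higher in EC in 3823 of the 3824 strongly gaining TEs listed for it, as in 94.4% of non-gaining and 99.2% of all intergenic TEs. It averaged 38.1% in EC and 2.37% in leaf (SD over TEs 13.6 in EC), a difference of 35.8 percentage points, and by chromosome from 33.0 on chromosome 16 to 38.5 on chromosome 17. In non-gaining TEs CHH averaged 13.9% in EC and 1.43% in leaf, a difference of 12.4. The difference between these was 23.3 percentage points and positive on 19 of 19 chromosomes (SD over chromosomes 1.76), and was 13.5 when non-gaining TEs were not weighted to the same leaf level. All intergenic TEs, which were not matched for leaf CHG (mean 61.9% against 26.9%), had 35.8% CHH in EC and 3.45% in leaf. In this unmatched comparison the strongly gaining TEs stood little apart. A CHH level at least 40 percentage points higher in EC was found in 1196 (31.3%, 29.8 to 32.8), against 3.01% of non-gaining and 25.9% of all intergenic TEs. A CHH difference under 10 percentage points was found in 33 (0.863%), against 51.8% of non-gaining TEs and 7.53% of all.

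CHH in EC increased with leaf CHG, from a mean of 32.8% in strongly gaining TEs under 10% leaf CHG to 42.7% from 50 to under 60%. In non-gaining TEs the means of the same classes were 4.25% and 23.6%. It also differed by CG state, at 27.4% in strongly gaining TEs with leaf CG under 20%, 35.7% from 20 to under 80% and 43.7% at 80% or more. The class with the largest mean CG difference thus had the least CHH in EC, and across strongly gaining TEs the CG and CHH differences were negatively correlated (r -0.36, rho -0.36, n = 3066 TEs).

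**Figure D3:**
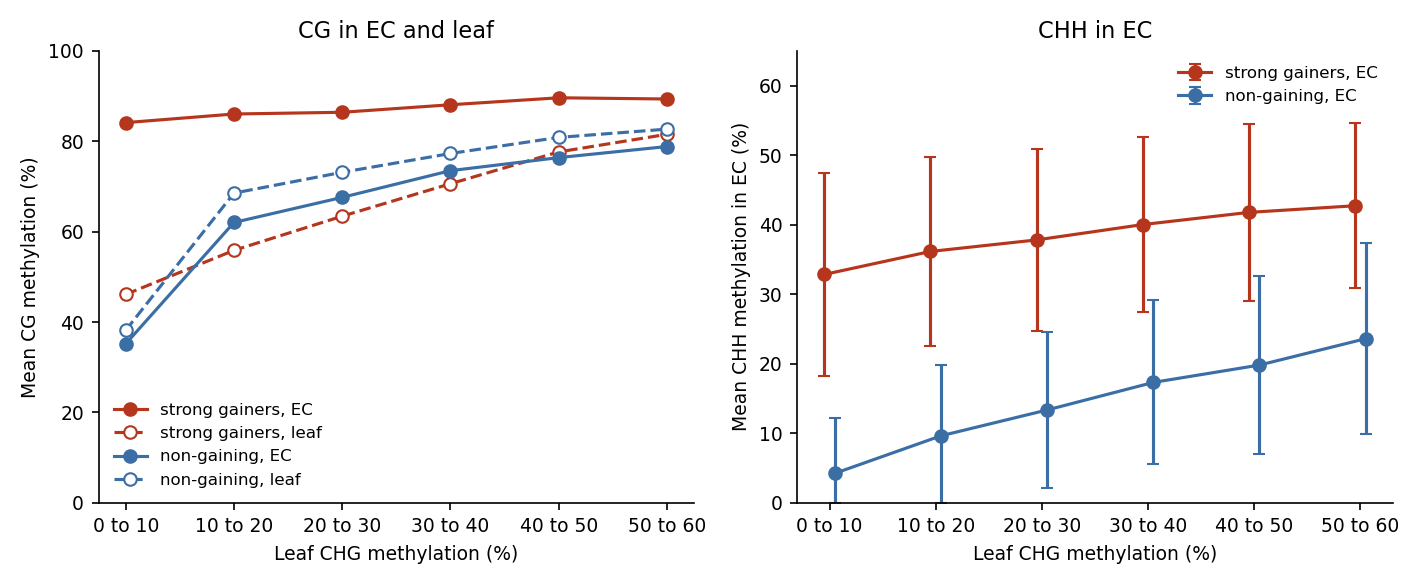
CG methylation in EC and leaf (left, mean %) and CHH methylation in EC (right, mean % with SD over TEs, cut at 0) by class of leaf CHG methylation (x axis, %), for strongly gaining TEs (red) and non-gaining TEs (blue). Strongly gaining TEs had 84.1 to 89.6% CG in EC in every class and CHH means of 32.8 to 42.7%, against 4.25 to 23.6% CHH in non-gaining TEs.

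Single TEs show these states. They were named by a rule from strongly gaining TEs of at least 1000 bp listed in all contexts, with positions on the 12X assembly of the reference line PN40024. The largest CHG difference was found on chromosome 14 from 11421011 to 11422213. This TE of 1203 bp, on the minus strand, had 93.15% CHG in EC and 9.46% in leaf, 89.87% CG in EC and 80.73% in leaf, and 49.22% CHH in EC and 0.69% in leaf. It was methylated in CG in both tissues and in the other contexts mainly in EC. The nearest intergenic TE, 1261 bp away, had a CHG difference of -1.29 percentage points. The next, on chromosome 14 from 16949066 to 16950235, had 80.73% CHG in EC and 8.16% in leaf, and less CG in EC (79.58%) than in leaf (94.44%). The longest of the 5 largest, 3004 bp on chromosome 5 from 12810544 to 12813547, had 88.47% CHG in EC and 16.82% in leaf. Its CG was 93.51% in EC and 31.39% in leaf, so it was higher in EC in both contexts, and the nearest genic TE was 155 kb away. The other 2, on chromosomes 10 (11447737 to 11448771) and 18 (16973235 to 16974435), had CHG of 79.97% and 78.06% in EC and 8.33% and 7.64% in leaf.

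TEs with far less CG in leaf than in EC stood at the other end. The largest CG difference was on chromosome 2 from 16991930 to 16992948, in a minus-strand TE with 92.71% CG in EC and 0.81% in leaf, 67.64% CHG in EC and 1.47% in leaf, and 32.62% CHH in EC and 0% in leaf. A TE on chromosome 19 from 11412087 to 11413187 had 93.33% CG in EC and 13.89% in leaf. TEs on chromosomes 14 (15223092 to 15224143) and 3 (11479494 to 11480493) had 87.04% and 90.36% CG in EC and 23.53% and 28.1% in leaf. Their leaf CHG was 15.46% and 29.03%, so these were not bare in leaf. In all 4 the CG level of EC was that of a typical intergenic TE, whose mean was 85.8%.

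Beside the first TE on chromosome 14, CG of 80% or more in both tissues went with large CHG differences on chromosomes 3, 19 and 12. The TE on chromosome 3 from 8698801 to 8699984 had 95.1% CHG in EC and 31.97% in leaf, with 95.08% CG in EC and 88.57% in leaf. On chromosome 19 from 18142483 to 18143671 CHG was 78.49% in EC and 16.25% in leaf, and on chromosome 12 from 14349949 to 14351779 it was 92.9% in EC and 32.08% in leaf. These TEs were chosen for CG of 80% or more in both tissues, so a CG difference as large as their CHG difference was not possible.

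CHH in EC varied widely among long strongly gaining TEs. The highest levels were 71.38% on chromosome 14 from 25987446 to 25988500, against 8.54% in leaf, 70.8% on chromosome 19 from 10025579 to 10028578, against 20.88% in leaf, and 69.36% on chromosome 1 from 12265010 to 12266145, against 2.45% in leaf. The lowest were 16.21% and 17.18% on chromosome 18, in TEs that start at 17033022 and 17030238 and belong to the long run described further on, and 18.77% on chromosome 7 from 10283220 to 10284380. The TEs closest to the medians of all strongly gaining TEs lay on chromosome 5 (12778729 to 12780912) and on chromosome 3 (10176503 to 10178142, and 13861269 to 13862277). The TE on chromosome 5 had 86.84% CHG in EC and 36.96% in leaf, 88.07% CG in EC and 70.31% in leaf, and 35.71% CHH in EC and 2.49% in leaf.

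The strongly gaining TEs were mostly short, with a median length of 405 bp and quartiles of 199 and 769 bp, against 336 bp in non-gaining TEs at the same leaf level and 604 bp in all intergenic TEs. The ratio of 1.21 to non-gaining TEs was above 1 on 15 chromosomes and below it on 3, from 0.907 on chromosome 10 to 1.51 on chromosome 1. It turned round, to 0.986, with a limit of 50 percentage points and, to 0.965, among TEs of at least 1000 bp. Long TEs were scarce in both groups, as 41 strongly gaining TEs (1.07%) and 1.05% of non-gaining TEs reached 3000 bp, while 959 (25.02%) and 24.7% were under 200 bp. Of all intergenic TEs under 200 bp 7.28% gained strongly, against 0.526% of those of at least 3000 bp. Among TEs with leaf CHG under 60%, which alone could gain that much, the shares were 16.3% under 200 bp, 12.7% from 200 to under 500 bp, 15.8% from 500 to under 1000 bp, 12.1% from 1000 to under 3000 bp and 4.54% from 3000 bp.

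Short TEs hold few cytosines, and the part of sampling error in their values was not tested because the tables give no read numbers. The means in the other contexts were of like size in short and long TEs. Mean CG differences lay between 19.5 and 26.2 percentage points and mean CHH in EC between 37.2 and 40.7% in all 5 length classes. Like means do not show how precise single values are. The SD over TEs of the CG difference was 26.3 under 200 bp, against 15.0 from 1000 to under 3000 bp and 15.5 from 3000 bp. TEs with leaf CG from 20 to under 80% were the longest, with a median of 605 bp, against 326 bp at 80% or more and 251.5 bp under 20%.

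Strongly gaining TEs lay farther from genic TEs, which overlap annotated genes, than non-gaining TEs did. The median distance to the nearest genic TE was 23817 bp for strongly gaining TEs, 12221 bp for non-gaining TEs and 18109 bp for all intergenic TEs. Within 5 kb of a genic TE lay 10.9% of strongly gaining and 23.5% of non-gaining TEs, a difference of -12.6 percentage points that was negative on 19 of 19 chromosomes, from -22.7 on chromosome 16 to -2.48 on chromosome 14. Genic TEs made up 14.7% of the TEs within 100 kb of a strongly gaining TE, 24.4% around non-gaining TEs and 18.3% around all intergenic TEs.

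The share of strongly gaining TEs increased with this distance. Among intergenic TEs with leaf CHG under 60% it was 8.60% up to 1 kb from a genic TE, 9.08% from 1 to 5 kb, 11.7% from 5 to 20 kb, 15.5% from 20 to 50 kb, 17.2% from 50 to 100 kb and 24.5% over 100 kb away. A further 4 strongly gaining TEs overlapped a genic TE. The share of non-gaining TEs ran the other way, at 29.6% up to 1 kb, 20.3% from 20 to 50 kb and 7.43% over 100 kb away.

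The other contexts differed with distance among the strongly gaining TEs. CHH in EC averaged 33.6% in those over 50 kb from a genic TE and 41.7% in those up to 20 kb away (SD over TEs 10.1 and 15.0), a difference of -8.06 percentage points that was negative on 19 of 19 chromosomes. The CG difference averaged 26.5 percentage points in the distant and 19.2 in the near TEs, and was larger in the distant TEs on 16 of 19 chromosomes. Because leaf CG also differed, both comparisons were repeated within leaf CG classes. For CHH in EC, distant minus near TEs gave -9.38 percentage points at leaf CG of 80% or more and -6.49 from 20 to under 80%, and -5.12 in TEs of at least 500 bp. For the CG difference they gave 4.71 at leaf CG from 20 to under 80%, but -0.557 at 80% or more, where it was larger in the distant TEs on 8 of 19 chromosomes. Lower CHH in the distant TEs was thus found in both leaf CG classes, and the larger CG difference in the middle class alone of these. Within that middle class leaf CG was still lower in the distant TEs, at 54.2% against 58.1%, while CG in EC differed by 0.804 percentage points. Leaf CG is part of the CG difference by construction, and its part in this contrast was not tested. At 80% or more, leaf CG averaged 89.3% and 89.4%. CG thus had little room to be higher in EC, and no conclusion is drawn from this class. In the other intergenic TEs with leaf CHG under 60% CHH in EC ran the opposite way, from 24.7% up to 1 kb to 33.2% over 100 kb, where strongly gaining TEs had 32.2%.

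**Figure D4:**
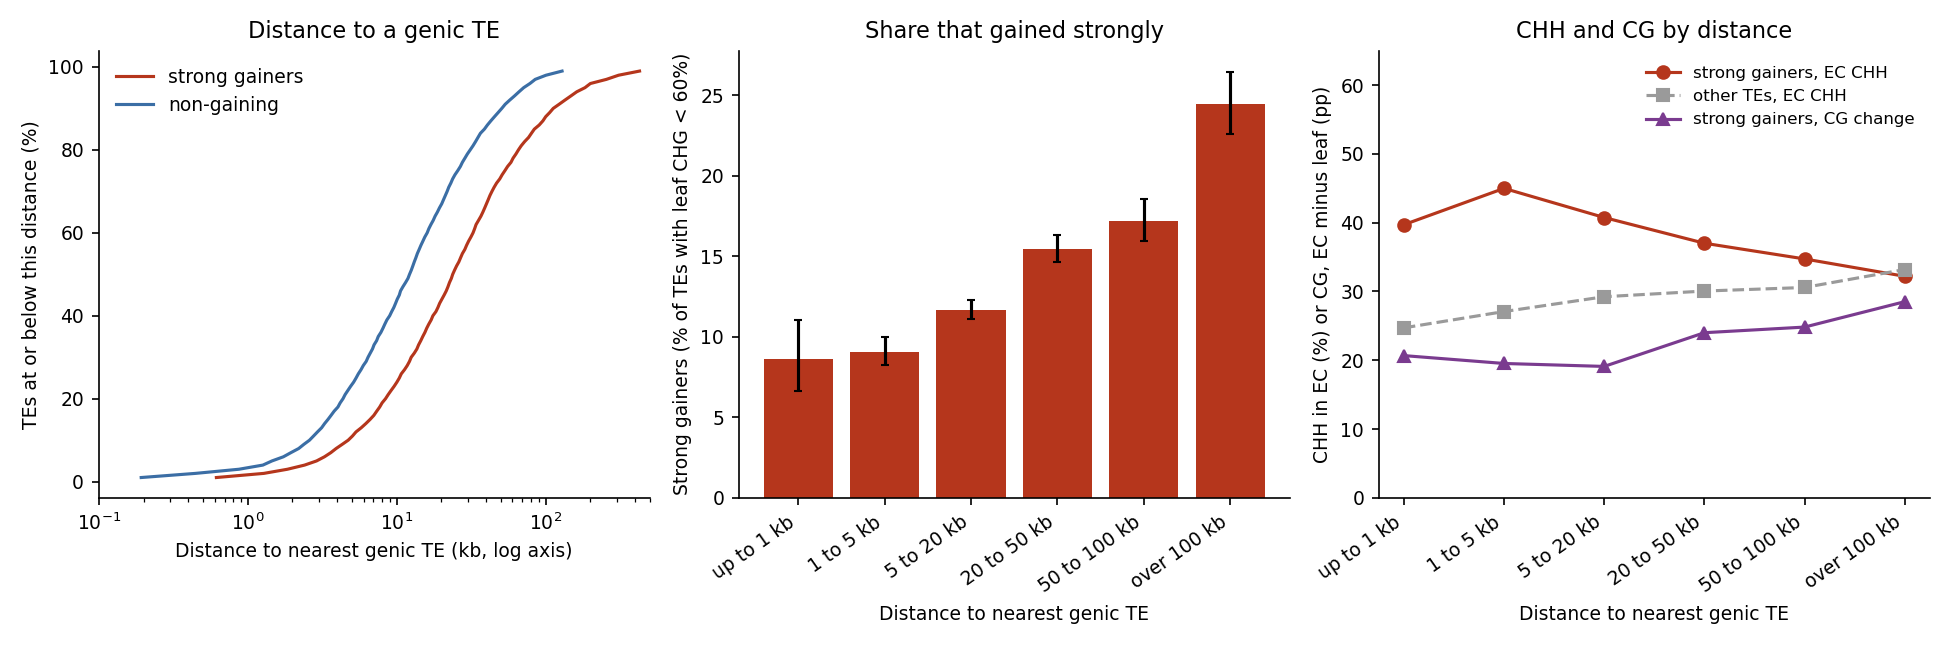
Distance to the nearest genic TE. Left, share of strongly gaining (red) and non-gaining TEs (blue) at or below each distance (x axis, kb, log axis). Middle, share of intergenic TEs with leaf CHG under 60% that gained strongly, with Wilson 95% intervals, from 8.60% up to 1 kb to 24.5% over 100 kb. Right, mean CHH in EC (%) of strongly gaining and of other TEs with leaf CHG under 60%, and the mean CG difference (EC minus leaf, percentage points, pp) of strongly gaining TEs.

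Genic TEs near a strongly gaining TE had on average higher CHG in EC, unlike those near a non-gaining TE. Up to 1 kb away the nearest genic TE differed by 21.7 percentage points in CHG (SD over TEs 18.4, n = 44) and was higher in EC in 95.5% of cases, against -11.1 beside non-gaining TEs. No minimum gap was set for genic TEs, so TEs that overlap or share read pairs could be included. Up to 20 kb away the means were 3.12 beside strongly gaining TEs (n = 1400) and -6.59 beside non-gaining TEs, a difference of 9.71 that was positive on 18 of 19 chromosomes and -0.727 on chromosome 6. Up to 5 kb away that difference was 15.2. Around all intergenic TEs the mean of the nearest genic TE was 5.59 up to 1 kb, 0.604 up to 5 kb and -2.24 up to 20 kb. Part of the contrast thus lies in the choice of non-gaining TEs as reference. The nearest genic TE was higher in EC in 75.5% of cases up to 5 kb from a strongly gaining TE and in 67% up to 20 kb. The shares higher in EC were not computed around other intergenic TEs. CHG was at least 40 percentage points higher in EC in 18.2% of the genic TEs nearest to a strongly gaining TE up to 1 kb away. This share was 6.54% up to 5 kb and 4.93% up to 20 kb. Of all 27500 genic TEs listed for CHG, at any distance, 299 (1.09%) differed that much. Like shares around other intergenic TEs were not computed, so the 1.09% is not a matched baseline.

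Intergenic TEs beside strongly gaining TEs also had a larger CHG difference. The nearest intergenic TE with a gap of at least 200 bp had a mean CHG difference of 18.2 percentage points beside strongly gaining and -2.49 beside non-gaining TEs. Beside all intergenic TEs that mean was 9.26. The contrast of strongly gaining with non-gaining TEs, 20.7 percentage points, was positive on 19 of 19 chromosomes, from 11.8 on chromosome 9 to 24.4 on chromosome 14. That neighbour was itself strongly gaining for 11.8% of strongly gaining and 2.44% of non-gaining TEs. Chromosome 6 was the exception, with a difference in this share of -0.246 percentage points, against 17.0 on chromosome 14. With a gap of at least 5 kb to the neighbour, the share differed by 2.19 and the neighbour's CHG difference by 10.2 percentage points.

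This closeness faded within a few kb. Of intergenic TEs 0.2 to 1 kb from a strongly gaining TE, 16.1% gained strongly, against 1.71% beside non-gaining TEs. The share was 10.4% from 1 to 2 kb, 8.96% from 2 to 5 kb and 5.99% from 5 to 10 kb, and from 10 to 500 kb it lay between 5.90 and 6.68%, still above the 4.73% of all intergenic TEs. Read pairs can span the shortest gaps, so these neighbours are not fully separate measurements. An overlap with another listed TE was found for 32.4% of strongly gaining, 12.3% of non-gaining and 26.9% of all intergenic TEs. It was mostly an overlap of a few bases, with a median of 10 bp in strongly gaining TEs, and 7.25% of them shared 50 bp or more. The difference in overlap between strongly gaining and non-gaining TEs, 20.1 percentage points, was 10.9 when only the longest of overlapping TEs was kept.

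Runs of strongly gaining TEs were also counted. Along the chromosomes 2946 of them (76.9%) had no strongly gaining TE directly before or after them among the intergenic TEs listed for CHG, and 887 (23.1%) lay in 360 runs of at least 2. Only 4.73% of intergenic TEs gained strongly, and no like share was computed for other intergenic TEs. The 76.9% therefore does not show that strongly gaining TEs stood apart. There were 107 runs of at least 3, which held 381 TEs (9.94%). Keeping the longest of overlapping TEs left 286 runs of at least 2 and a longest run of 7.

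The longest run held 8 strongly gaining TEs of 220 to 1926 bp on chromosome 18 from 16973235 to 17045858, a stretch of 72.6 kb with no other listed intergenic TE. All 8 lay on the plus strand. Their CHG was 78.06, 77.23, 80.21, 80.79, 79.94, 77.87, 80.6 and 72.89% in EC, in order along the chromosome, and 7.64, 31.17, 33.67, 25.23, 19.3, 13.19, 17.26 and 23.53% in leaf. The EC values were thus nearly equal while the leaf values were spread over a wide range. Their CHH in EC, 15.05 to 22.5%, was low for strongly gaining TEs, and their CG averaged 91.2% in EC and 76.45% in leaf (n = 7). The nearest genic TE was 398 kb from the first of them.

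A run of 6 on chromosome 13 from 16395501 to 16400568, all on the minus strand, was more varied. CHG was 76.56, 81.32, 83.11, 59.78, 70.09 and 72.9% in EC and 13.09, 40.33, 33.43, 4.22, 14.29 and 26.01% in leaf. CG averaged 84.4% in EC and 49.2% in leaf, where a single TE, the second, was high with 88.88%. In a run of 6 on chromosome 3 from 11822516 to 11829924 CHG was 98.57, 85.95, 93.57, 92.03, 85.13 and 94.77% in EC and 57.5, 26.32, 48.21, 35, 37.29 and 48.89% in leaf, with mean CHH of 37.8% in EC. TEs overlapped within both of these runs, so their values partly rest on shared bases.

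**Figure D5:**
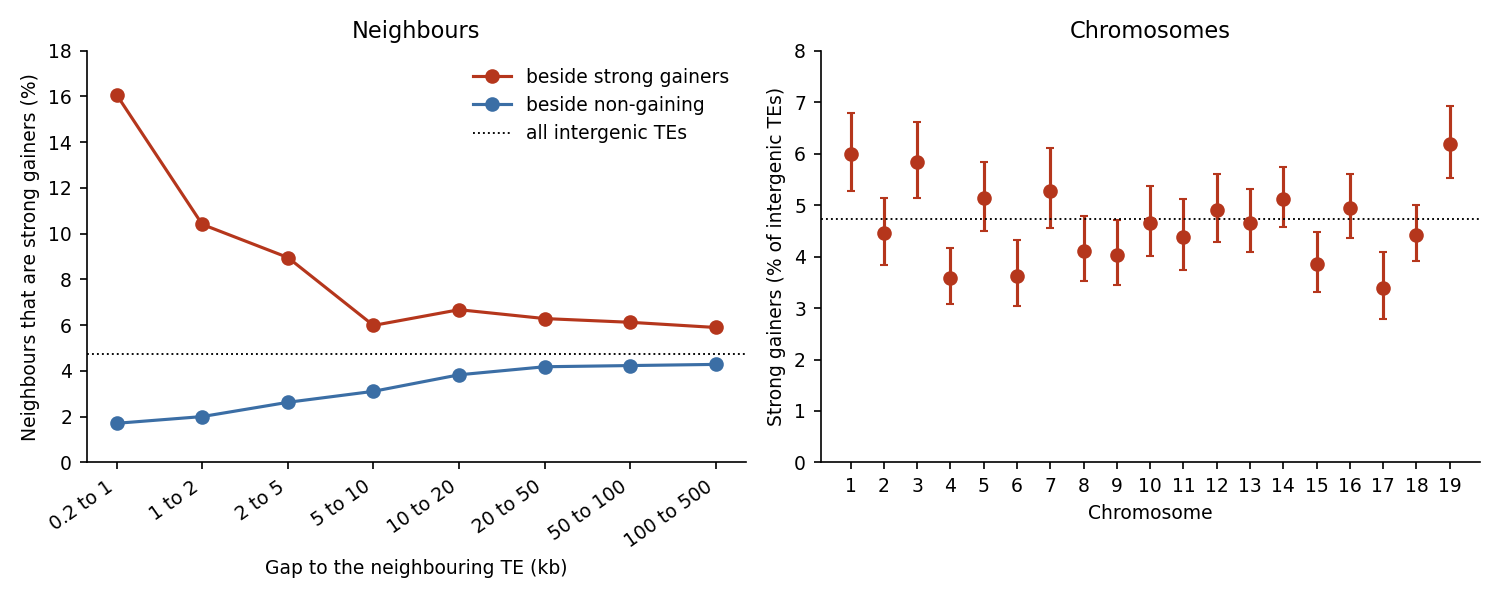
Clustering along the chromosomes. Left, share of neighbouring intergenic TEs that gained strongly (y axis, %) by the gap to the neighbour (x axis, kb), beside strongly gaining (red) and non-gaining TEs (blue), with the 4.73% of all intergenic TEs as a dotted line. Right, share of the intergenic TEs on each chromosome that gained strongly, with Wilson 95% intervals, lowest on chromosome 17 (3.38%) and highest on chromosome 19 (6.19%).

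Strongly gaining TEs were found on every chromosome. Their share ran from 3.38% on chromosome 17 (100 of 2956) to 6.19% on chromosome 19 (286 of 4618), with 5.99% on chromosome 1 and 5.84% on chromosome 3. Among TEs with leaf CHG under 60% the order was another, with the lowest share on chromosome 9 (9.25%) and the highest on chromosome 3 (16.5%), while chromosome 17 had 11.9% and chromosome 19 15.7%. On 13 sequences that belong to a chromosome but have no place on it lay 215 (5.61%), and 4.88% of all intergenic TEs listed for CHG. Of 424 windows of 1 Mb with at least 50 intergenic TEs, 11 held no strongly gaining TE and 8 had a share over 10%, with quartiles of 2.70 and 5.68%. Strongly gaining TEs made up a larger share in windows poor in genic TEs. Window shares are over all intergenic TEs and were not computed for those with leaf CHG under 60% alone. The share was 6.03% in windows where genic TEs made up under 10% of TEs, 5.40% from 10 to under 20%, 3.81% from 20 to under 40% and 3.22% from 40%.

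The highest shares were in adjoining windows of chromosome 1. From 13000001 to 14000000 it was 14.4% (44 of 306 TEs, 10.9 to 18.8) and from 12000001 to 13000000 12.4% (32 of 259). A window on chromosome 7 from 5000001 to 6000000 had 12.3% (18 of 146). Genic TEs made up 6.53%, 8.16% and 21.6% of the TEs in these windows, in that order.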

How the data were processed

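The authors prepared libraries with the TruSeq DNA Methylation kit, mapped read pairs to the 12X PN40024 assembly with BS-Seeker2 (v2.1.8), called methylation with cgmaptools and averaged it per TE. TEs came from RepeatMasker (v4.1.0) and were divided by overlap with genes of the V2.1 annotation with BEDtools (v2.29.2). TEs without an effective coverage over 20 in each library had been left out. The deposited values are a methylation fraction per TE, context and library, multiplied here by 100. The deposited average profiles over genes and TEs were not used, and TE families are not analysed here. Reads of similar copies can be placed on the wrong copy, and Chardonnay bases that differ from the reference can be read as lost methylation.

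Libraries were grouped by their tissue label. Means, medians, shares with Wilson 95% intervals and distances between TE edges were computed with Python 3.11.15, numpy 2.4.6 and pandas 2.3.3, and the procedures were tested on simulated data. Listed starts count from 0, as shown by abutting TEs, and 1 was added. The limits and comparisons were chosen with earlier results of these data known. TEs were named among strongly gaining TEs of at least 1000 bp listed in 3 contexts on chromosomes 1 to 19, the longest of each overlapping set (653). They were the 5 largest CHG and 4 largest CG differences, the 4 largest CHG differences with CG of 80% or more in both tissues, the 3 lowest and 3 highest CHH values in EC, and the 3 closest to the medians. The 3 longest runs, with 2 of 3 runs of 6 taken, the 3 windows of 1 Mb with the highest share and the 3 TEs of at least 1000 bp on each side of the limit were also named. Alternatives covered the limits, leaf weighting, minimum lengths, overlapping TEs, sequences without a position, medians, gaps and distances. Weighting by leaf CHG and length together was chosen after seeing the data.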

Additional observations from a re-analysis of the deposited data

How the results depend on the processing

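Over 13 results 153 values were recomputed, of which 119 stayed within 1 SD over chromosomes (counts within 1.5 times), 32 moved further and 2 changed direction. Limits of 30 and 50 percentage points gave 8635 and 1742 strongly gaining TEs, CG differences of 15.9 and 29.1, and CG contrasts with non-gaining TEs of 20.3 and 34.2. The lower limit gave a CHH contrast of 21.2 and a length ratio of 1.49. The length ratio changed direction at the higher limit (0.986) and among TEs of at least 1000 bp (0.965). TEs of at least 500 and 1000 bp numbered 1673 and 737, with leaf CG contrasts of -10.3 and -9.48 and CHH contrasts of 26.1 and 27.2. Without leaf weighting the contrasts were -17.7 for leaf CG, 13.5 for CHH and 13.6 for the overlap share. Medians gave 17.75 and 34.1 for the CG and CHH differences, and -10.8 and 18.9 for the leaf CG and CG contrasts. With non-gaining TEs taken as those within 10 percentage points of 0, the CG, CHH and neighbour CHG contrasts were 22.2, 16.2 and 15.6, and with all TEs gaining under 10 the CHH contrast was 20.2. Genic distances of 1 and 20 kb gave share differences of -1.90 and -23.2, and the nearest genic TE within 5 kb a CHG contrast of 15.2. The longest of overlapping TEs gave an overlap contrast of 10.9. With gaps of at least 5 kb the share with a strongly gaining neighbour differed by 2.19, and the neighbour's CHG contrast was 16.0 from 1 kb and 10.2 from 5 kb. The cause was not tested beyond the construction of each setting. Weighting by leaf CHG and length together, chosen after seeing the data, moved none of the 9 results it was run on by over 1 SD.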
